A study of Mus musculus with 4 samples.

Results

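Ciliated cells that appeared in lung organoids were followed across 3 days of culture. They were picked by 5 transcripts of motile ciliated cells, Foxj1, Ccdc153, Dynlrb2, Tppp3 and Rsph1. A barcode of the day 8, 13 or 20 matrix was a member when it had at least 500 genes and at most 15% mitochondrial UMIs (unique molecular identifiers, which count captured transcripts), gave at least 0.1% of its UMIs to the 5 genes with at least 3 of them detected, and held at least 1 Epcam UMI. This found 186 barcodes of the 42105 in all matrices, 28 at day 8, 112 at day 13 and 46 at day 20. They are compared with 556 barcodes of day 0 in which Foxj1, Ccdc153, Dynlrb2, Tppp3 and Tmem212 gave at least 0.3% of UMIs, and with the other epithelial barcodes of the same cultures.

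Every library came from lungs of Gramd2creERT2;mTmG mice. In such mice a Cre recombinase that tamoxifen activates is made under Gramd2, a gene of alveolar type 1 (AT1) cells, and switches the reporter at the membrane, tdTomato, over to EGFP in the cells that carry it and in their descendants. The cultured cells were GFP+ cells sorted from those lungs and grown for 8, 13 or 20 days in growth factor-reduced Matrigel beside MLg cells, a mouse lung fibroblast line. The medium held serum, insulin, transferrin and SB 431542, an inhibitor of the TGF-beta type I receptor, and dissociated colonies were enriched for EpCAM on magnetic beads. The day 0 library held GFP+ cells taken straight from the sort. There was 1 library per day, which leaves every comparison of days without replicates: the intervals below cover counting error, and nothing was tested. The labels state neither the age and number of the animals nor a tamoxifen schedule. The labels call the cells alveolar epithelial and the molecule nuclear RNA, while the protocol describes single-cell suspensions.

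Motile ciliated cells line the airways and move mucus. A cell bound for this fate leaves the cell cycle, switches on Gmnc, Mcidas and Ccno, builds many centrioles with the help of Deup1 and Plk4, and, under Foxj1 and the RFX factors, makes the dynein arms, radial spokes and transport proteins of the beating axoneme. In the lung such cells usually arise from secretory cells of the airway, and the switch between the secretory and the ciliated fate runs through Notch. Some components are made early and only for a time, such as the Deup1 structures on which centrioles grow, whereas the cilium tip protein sentan (Sntn) belongs to the finished cilium.

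The contrast between early and late genes runs through the results, so the promoters of 5 genes on either side of it are given: Deup1 (chr9:15627847-15628096, minus strand), Ccno (chr13:112987552-112987801, plus strand) and Mcidas (chr13:112993618-112993867, plus strand) from the early side, Sntn (chr14:13670626-13670875, plus strand) and Tmem212 (chr3:27896369-27896618, minus strand) from the late side. Each window is the 250 bases before the annotated start in RefSeq on GRCm38.p6, written 5′ to 3′ on the gene's own strand. Capitals mark an RFX-type motif (GTTGCC on either strand) or a forkhead motif (TGTTTAC on either strand).
Deup1: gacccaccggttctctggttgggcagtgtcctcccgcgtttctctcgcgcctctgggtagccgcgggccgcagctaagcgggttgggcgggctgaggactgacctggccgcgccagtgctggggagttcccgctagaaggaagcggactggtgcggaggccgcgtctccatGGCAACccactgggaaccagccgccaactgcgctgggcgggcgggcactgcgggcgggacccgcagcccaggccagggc
Ccno: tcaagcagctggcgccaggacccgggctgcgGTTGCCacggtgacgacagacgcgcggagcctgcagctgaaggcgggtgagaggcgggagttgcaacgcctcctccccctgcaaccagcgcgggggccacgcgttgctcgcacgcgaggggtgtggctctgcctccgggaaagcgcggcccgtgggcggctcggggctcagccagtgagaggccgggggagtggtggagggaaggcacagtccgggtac
Mcidas: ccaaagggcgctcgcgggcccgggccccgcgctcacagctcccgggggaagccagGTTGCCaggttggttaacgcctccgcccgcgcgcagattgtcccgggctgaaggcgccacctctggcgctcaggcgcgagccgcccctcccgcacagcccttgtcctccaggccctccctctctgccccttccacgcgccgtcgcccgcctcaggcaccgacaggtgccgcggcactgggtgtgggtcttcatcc
Sntn: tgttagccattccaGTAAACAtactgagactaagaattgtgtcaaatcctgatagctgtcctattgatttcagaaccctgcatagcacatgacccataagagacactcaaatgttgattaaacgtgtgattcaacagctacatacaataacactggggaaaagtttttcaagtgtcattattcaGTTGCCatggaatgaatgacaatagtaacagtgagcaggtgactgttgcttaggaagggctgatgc
Tmem212: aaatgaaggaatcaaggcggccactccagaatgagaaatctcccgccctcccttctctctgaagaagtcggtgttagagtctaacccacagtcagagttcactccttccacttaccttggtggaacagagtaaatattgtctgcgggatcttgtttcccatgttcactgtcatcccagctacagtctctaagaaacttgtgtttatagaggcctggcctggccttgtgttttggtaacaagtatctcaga
Deup1 has another annotated start, whose window held no match and is not shown. The RFX-type motif stood once in each of the first 4 windows above, the forkhead motif once in that of Sntn, and neither in that of Tmem212. Of the 5 early genes summed below, which add Cdc20b and Foxn4, 3 held GTTGCC. The 3 early genes shown are those with a match. Of the 5 late genes, which add Cdhr3, Cdhr4 and Kcnrg, 2 held it. Of the 221 genes in the 11 motile cilia lists used here, 174 had a promoter in the table, and 35.6% of those held GTTGCC, against 11.8% of all 27025 genes in it. The forkhead motif stood in 4.6% of the cilia genes and 3.54% of all genes. These are matches of letters and say nothing of binding.

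The libraries held 11390, 11445 and 10368 barcodes at days 8, 13 and 20 and 8902 at day 0, with 120905926 to 154258012 UMIs per culture library and 31850454 at day 0. After the filter on genes and mitochondrial UMIs 7893, 9311 and 9178 culture barcodes and 7350 day 0 barcodes were left. Depth differed widely: the median member had 35663 UMIs at day 8, 32374 at day 13 and 22677.5 at day 20, against 3262.5 in the median day 0 ciliated barcode. Other epithelial barcodes of the cultures had medians of 16255, 15246 and 15456 UMIs. Library pairs shared 25 to 41 barcode sequences, and none of these was ciliated in both libraries of a pair. A doublet score (Scrublet) was set to mark 0.8% of the kept barcodes for every 1000 barcodes in the matrix. It marked 3 of 28, 3 of 112 and 8 of 46 members, and 78 of 556 day 0 ciliated barcodes. Macrophage and fibroblast genes together passed 1% of UMIs in 1, 6 and 3 members and in 7 day 0 ciliated barcodes.

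Members made up 0.355% of the kept barcodes at day 8 (28 of 7893, exact 95% interval 0.236 to 0.512), 1.20% at day 13 (112 of 9311, 0.991 to 1.45) and 0.501% at day 20 (46 of 9178, 0.367 to 0.668). Among kept barcodes with an Epcam UMI they were 3.31%, 4.86% and 4.14%, with intervals of 2.21 to 4.74, 4.02 to 5.82 and 3.05 to 5.49. The share of all barcodes was highest at day 13, whereas the intervals of the share of Epcam barcodes overlapped at all 3 days. Day 0 ciliated barcodes were 7.56% of the kept barcodes of the sort. Shares of a library also move with the bead enrichment, whose yield was not measured here. The 5 genes, which chose the members, took a median of 0.398%, 0.421% and 0.450% of member UMIs at days 8, 13 and 20, against 0.657% in day 0 ciliated barcodes. Just inside the threshold, between 0.1% and 0.15%, lay 9 barcodes, and just outside, between 0.05% and 0.1%, lay 14. Meig1 stood at 349 CPM (summed UMIs of a gene per 1e+06 UMIs of those barcodes) in the set of 9 and at 298 CPM in the set of 14.

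Markers that had not chosen the cells were also high in members. The members were cut by cilia genes, with earlier results of these data known. High levels of co-expressed genes were thereby built in, so the values below are a description and do not test the label. Meig1, known from sperm flagella, stood at 1020, 1164 and 1214 CPM in members of days 8, 13 and 20, against 674 CPM in day 0 ciliated barcodes. In the other epithelial barcodes it stood at 1.05, 2.85 and 11.5 CPM. A Meig1 UMI was found in 26 of 28, 107 of 112 and 45 of 46 members. Riiad1 stood at 392, 612 and 681 CPM in members and 695 CPM at day 0, and at no more than 3.77 CPM in the other epithelial barcodes. Erich2 stood at 310, 540 and 409 CPM in members and 315 CPM at day 0, and at no more than 2.74 CPM in the others. All 3 genes were thus high in members of every culture library, at levels near or above those of day 0 ciliated barcodes except for Riiad1 at day 8. Of the genes that chose the cells, Foxj1 was at 332, 341 and 329 CPM in members and 595 CPM at day 0, and Tppp3 at 1316, 1655 and 1775 CPM in members and 3208 CPM at day 0. Macrophages of the cultures, which measure free RNA in the droplets, had Meig1 at 1.03, 3.72 and 2.99 CPM.

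**Figure D1:**
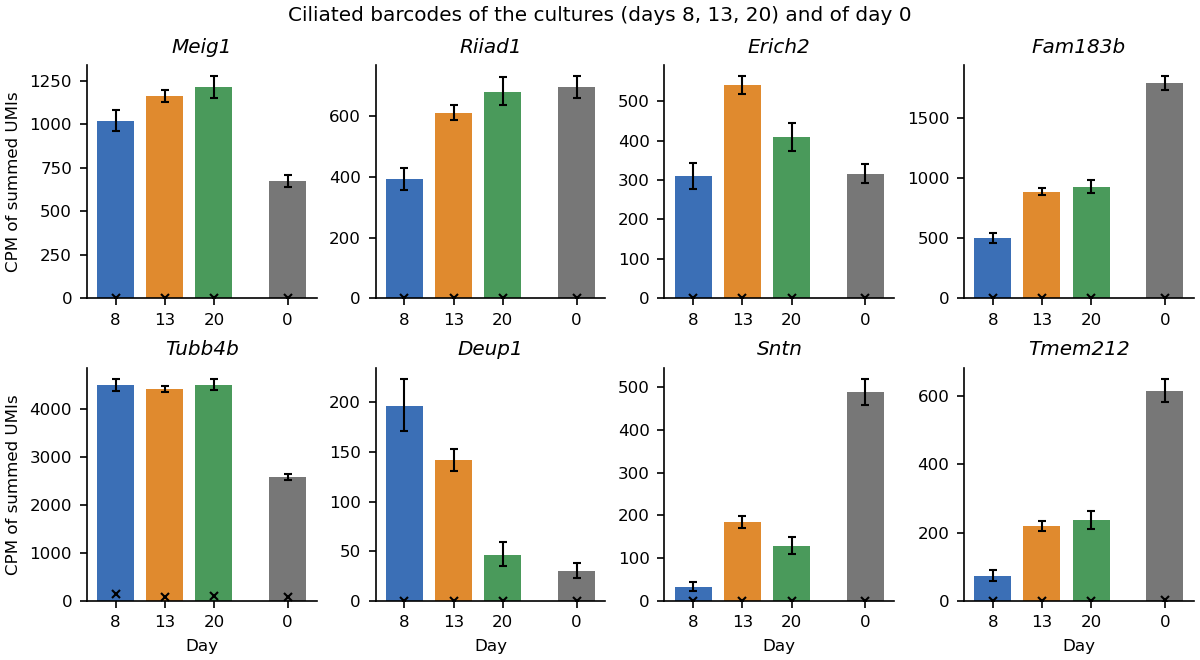
Levels of 8 genes in ciliated barcodes, in CPM of summed UMIs, for culture days 8, 13 and 20 and, after a gap, day 0. Bars are the ciliated barcodes with exact 95% Poisson intervals (counting error). Crosses are macrophage barcodes of the same library, which measure free RNA. Deup1 was highest at day 8 (196 CPM), and Sntn and Tmem212 were lowest there.

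Within the culture libraries most motile cilia genes were higher in the members than in the other epithelial barcodes. Without the genes of the rules, the motile cilia lists summed to 30308, 36812 and 35699 CPM in members of days 8, 13 and 20. They summed to 3488, 3820 and 3066 CPM in the others. A gene was called when it differed at least 2-fold the same way in all 3 culture libraries, reached 20 CPM in the higher group, and the interval of its pooled ratio left out 1. Of 6773 genes, 1081 were higher in members (16.0%) and 110 lower (1.62%), with a median log2 ratio of 0.17. Of 173 genes of the motile cilia lists outside the rule, 160 were higher and 0 lower, with a median log2 ratio of 6.51. The members were cut by 5 cilia genes, so a high count for co-expressed cilia genes was built into the comparison and is given as a description. By structure, the calls were 13 of 13 outer dynein arm and docking genes, 20 of 20 of the inner arms and nexin links, 10 of 10 dynein assembly factors, 22 of 22 of the radial spokes and central pair, 25 of 25 microtubule inner proteins and tektins and 26 of 26 intraflagellar transport genes. Transport genes, which primary cilia also use, had the smallest median of these lists, 3.04, against 9.31 for the outer arms. The counts and medians by structure keep any genes of the rule in these lists, which were high by choice. Planar cell polarity genes, which orient the basal bodies, were called in 1 of 6.

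Ranked by the smallest of the 3 library ratios among called genes of at least 50 CPM, the 12 leading genes were Fam183b, Lrrc23, Dynlt4, Ccdc113, Morn5, Spag17, Tekt4, Cibar2, BC051019, Ak7, Odf3b and 1110017D15Rik. Fam183b stood at 502, 884 and 925 CPM in members and 0.0805, 0.689 and 0.353 CPM in the other epithelial barcodes. Spag17, a central pair protein, stood at 220, 152 and 160 CPM in members and at most 0.242 CPM in the others. Tekt4, a tektin of the axonemal doublets, stood at 171, 271 and 204 CPM in members and at most 0.197 CPM in the others. Tubb4b, the main beta tubulin of airway cilia, stood at 4502, 4424 and 4506 CPM in members and 631, 629 and 480 CPM in the others, a log2 ratio of 2.92.

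Some genes outside the axoneme were also higher in members than in their neighbours. Hes6 stood at 298, 347 and 229 CPM in members and 104, 69.4 and 67.6 CPM in the others. Cd24a, a surface protein used to sort airway ciliated cells, stood at 808, 862 and 934 CPM in members and 129, 97.8 and 101 CPM in the others. Krt8 stood at 3708, 1961 and 1102 CPM in members and 739, 574 and 351 CPM in the others. Lgals3, coding for galectin-3, stood at 3960, 2906 and 1823 CPM in members and 1048, 593 and 440 CPM in the others. The cytosolic chaperone gene Hsp90aa1 stood at 5019, 3664 and 2252 CPM in members and 385, 457 and 323 CPM in the others. For each of these 5 genes the members were higher in every culture library. The lists around them mostly did not differ. Of 12 alveolar transition genes, Lgals3 among them, 2 were higher and 0 lower, with a median log2 ratio of 0.07. That is 16.7%, against 16.0% of all genes tested. Of 13 immediate early and heat shock genes 1 was higher and 0 lower, with a median of -0.15. Of 18 genes of drug and retinoid metabolism, 6 were higher in members and 0 lower: Cyp2a5, Cyp2b10, Cyp2s1, Cyp4b1, Aldh1a1 and Aldh3b1.

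AT2 markers were mostly lower in members. Of 14 AT2 genes 10 were lower in members and 0 higher, among them Sftpc, surfactant protein C, at 3329, 9277 and 14192 CPM in members and 62950, 41272 and 107274 CPM in the others. Of 10 AT1 genes 3 were lower (Ager, Pdpn and Vegfa), and of 9 basal genes 3 (Krt15, Dapl1 and Aqp3), with none higher in either list. Of 15 secretory genes 3 were higher and 0 lower: the mucins Muc16 and Muc4, and Agr2, a disulfide isomerase of mucin-making cells. That is 20%, near the 16.0% of all genes tested that were higher in members, and the list median was 0.44. Of 15 cycling genes 2 were lower (Hmmr and Tyms) and 0 higher. The 8 that led on the side of the others were Nkd1, H1f5, Krt15, Igfbp3, Fxyd4, H2ac8, Aqp3 and Lamp3. Nkd1, an inhibitor and target of Wnt signalling, stood at 0, 4.58 and 1.61 CPM in members and 59.2, 45.8 and 114 CPM in the others.

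Against the ciliated barcodes of day 0, cultured members had lower levels of the large motor and central pair genes, of most regulators and of the Notch genes, and higher levels of genes of secretion, the cell cycle, glycolysis and lipid synthesis. Of 7845 genes 458 were higher in members (5.84%) and 1179 lower (15%), with a median log2 ratio of -0.36 over all genes. Each culture library was set against the same day 0 library, so the 3 ratios of a gene are not independent of each other. Scaling by the median ratio over genes in place of total UMIs gave 689 higher and 728 lower, and an all-gene median of 0.02. Ratios to day 0 are therefore read against the all-gene median. Of 189 motile cilia genes outside the rules, 56 were lower and 4 higher, with a median of -0.84 that ran from -1.06 in day 8 members to -0.77 in day 13 members. With the median scaling 37 were lower and the median was -0.50. Day 0 barcodes were chosen at 0.3% and members at 0.1% of UMIs. With day 0 barcodes chosen by the rule of the members the median was -0.60, and with members at 0.3% it was -0.55.

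Among the regulators of multiciliogenesis, 6 of 10 were lower than in day 0 ciliated barcodes and 1 was higher. Myb, which acts early in this fate in mouse airways, stood at 62.5, 70.1 and 48.3 CPM in members and 335 CPM at day 0 (log2 -2.37, interval -2.55 to -2.20). Trp73, a p53 family factor upstream of Foxj1, stood at 12.3, 14.9 and 18.5 CPM in members and 85.3 CPM at day 0. Rfx3 stood at 29.0, 27.7 and 40.2 CPM in members and 128 CPM at day 0, and Rfx2 at 30.8, 35.6 and 35.4 CPM in members and 80.5 CPM at day 0. Rfx1 and the kinase-like gene Ulk4 were lower too. With the median scaling, under which Mcidas was tested too, 4 of 11 regulators were lower and 2 higher. Ccno, a cyclin-like protein needed for mass production of centrioles, was the regulator that was higher: 171, 67.9 and 33.0 CPM in members and 4.79 CPM at day 0 (log2 4.05, 3.16 to 5.12). A Ccno UMI was found in 12 of 28, 37 of 112 and 6 of 46 members. Without members rich in AT2 transcripts (described below) Ccno no longer passed the rule.

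Other genes of centriole amplification followed Ccno at day 8 without passing the rule. Deup1 stood at 196, 142 and 45.8 CPM in members and 29.7 CPM at day 0, so its day 20 level was within 2-fold of day 0. Mcidas stood at 29.0, 18.8 and 8.04 CPM in members, with 33, 78 and 10 UMIs, and had 0 UMIs among 2087248 in day 0 ciliated barcodes. Plk4, the kinase that starts a new centriole, stood at 39.6, 30.3 and 8.04 CPM in members and 5.27 CPM at day 0. Cdc20b stood at 19.4, 11.3 and 1.61 CPM in members and had 0 UMIs at day 0. All 4 were highest at day 8 and lowest at day 20. Of the 16 centriole genes tested against day 0, Ccno was higher and 2, Ccdc14 and Fam161a, were lower, with a list median of -0.29.

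The depth gap was removed by thinning. Each barcode was thinned to 2000 UMIs, which left out 0, 2 and 1 members and 163 day 0 ciliated barcodes. A Deup1 UMI then stood in 21.4% of members at day 8 (exact interval 8.30 to 41.0), 16.4% at day 13 (10.0 to 24.6) and 8.89% at day 20 (2.48 to 21.2), against 7.12% of day 0 ciliated barcodes (4.79 to 10.1). The culture intervals overlap. Sntn ran the other way against day 0: 7.14% of members at day 8, 28.2% at day 13 and 13.3% at day 20, against 61.1% of day 0 ciliated barcodes (56.1 to 65.9). Myb was found in 3.57%, 13.6% and 11.1% of thinned members and 51.1% of thinned day 0 ciliated barcodes. No thinned macrophage of day 8 or 13 had a UMI of Deup1, Sntn or Myb, which allows a share of up to 0.307% at day 8 and 0.305% at day 13. Unthinned, a Deup1 UMI was found in 75%, 69.6% and 43.5% of members.

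The dynein motors of the axoneme were lower in culture. Of 12 outer arm and docking genes 6 were lower and 0 higher, with a median log2 ratio of -1.12. Dnah5, the outer arm heavy chain most often mutated in primary ciliary dyskinesia, stood at 50.2, 197 and 205 CPM in members and 459 CPM at day 0 (log2 -1.41, -1.54 to -1.29). Dnah9, the distal outer arm chain, stood at 62.5, 115 and 114 CPM in members and 320 CPM at day 0. Dnah11 stood at 23.8, 56.4 and 44.2 CPM in members and 179 CPM at day 0. All 3 were lower than day 0 at each culture day, and lowest at day 8. With the median scaling 2 of the 12 outer arm genes were lower. Of 22 inner arm and nexin link genes 14 were lower and 0 higher, median -1.33, and 10 with the median scaling. Dnah12 stood at 95, 168 and 158 CPM in members and 572 CPM at day 0, and Dnah6 at 52.8, 100 and 129 CPM in members and 374 CPM at day 0. Dnah7a, Dnah7b and Dnah7c were among the 14 and are near-identical copies, so the split of UMIs among them is uncertain. Of 12 cytoplasmic dynein assembly factors 1 was lower, Daw1, at 6.16, 8.67 and 9.65 CPM in members and 61.3 CPM at day 0.

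Central pair and spoke genes gave 9 lower and 0 higher of 22, median -0.95, and 7 lower of 23 with the median scaling. Hydin, a very large central pair protein, stood at 49.3, 93.2 and 94.9 CPM in members and 291 CPM at day 0. Spag16 stood at 16.7, 29.4 and 49.1 CPM in members and 175 CPM at day 0. Rsph10b, a spoke head gene, was among the 9. Rsph9, another, was close to day 0: it stood at 402, 434 and 361 CPM in members and 421 CPM at day 0. Of 24 microtubule inner proteins and tektins 6 were lower (Tekt2, Cfap53, Cfap43, Cfap100, Enkur and Stmnd1) and 0 higher, median -0.86. With the median scaling 4 of 25 were lower. Tekt1 stood at 339, 360 and 277 CPM in members and 332 CPM at day 0.

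Transport genes and tubulins departed from this. Of 26 intraflagellar transport genes 3 were lower (Ift88, Ttc26 and the retrograde motor gene Dync2h1) and 0 higher, with a median of -0.20, and of 0.13 with the median scaling. Ift20, which carries cargo out of the Golgi, stood at 772, 646 and 585 CPM in members and 373 CPM at day 0. Of 12 tubulin and tubulin-modifying genes 3 were higher and 3 lower. The 3 higher, Tubb5, Tubb2a and Tuba4a, are tubulins of the cell body, and Tubb5 stood at 174, 150 and 252 CPM in members and 54.1 CPM at day 0. The 3 lower, Ttll3, Ttll6 and Ttll9, add glycine or glutamate chains to axonemal tubulin, and Ttll6 stood at 16.7, 16.1 and 9.65 CPM in members and 78.6 CPM at day 0. Tubb4b stood at 4502, 4424 and 4506 CPM in members and 2580 CPM at day 0, under the 2-fold limit.

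Of 26 other genes of ciliated cells 5 were lower (Sntn, Cdhr3, Ccdc17, Kcnrg and Ubxn10) and 0 higher, median -0.88. Sntn stood at 31.7, 184 and 129 CPM in members and 489 CPM at day 0 (log2 -1.73, -1.86 to -1.60). Cdhr3, a cadherin of the ciliated cell surface that rhinovirus C binds in people, stood at 22, 77.6 and 82.0 CPM in members and 297 CPM at day 0. Tmem212, which helped choose the day 0 barcodes, stood at 73.9, 218 and 236 CPM in members and 615 CPM at day 0. Sntn, Cdhr3 and Tmem212 were lowest at day 8 in each case.

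Gene length moved with these ratios. RefSeq gave a genomic span for 179 of the 189 cilia genes and for 99.1% of all genes tested. Cut into 3 equal sets by span, the genes of up to 14.0 kb had a median log2 ratio of 0.08 with 8.34% lower. The middle set had a median of -0.37 with 13.8% lower, and the set above 41.7 kb a median of -0.74 with 22.8% lower. In the same spans the cilia genes had medians of -0.27, -0.62 and -1.12, with 4 of 44, 14 of 63 and 34 of 72 lower. Long genes were thus lower in members whether or not they belong to cilia, and the part of span in the list's ratio was not tested. 

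**Figure D2:**
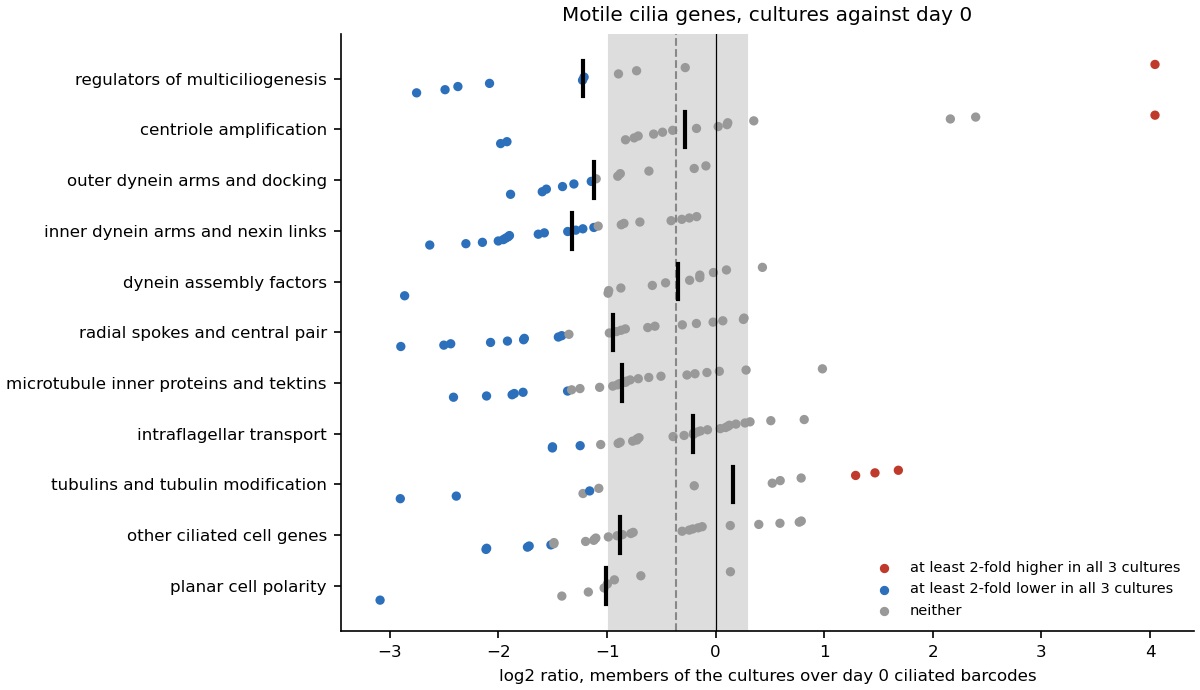
Log2 ratio of culture members to day 0 ciliated barcodes for each gene of the 11 motile cilia lists; each point is a gene, red and blue mark genes at least 2-fold higher or lower in all 3 culture libraries, and black ticks are list medians. The grey band holds the middle 50% of all genes tested and the dashed line their median (-0.36), below which lie the medians of the dynein arm, spoke and inner protein lists but not those of transport and tubulin genes.

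Secretory transcripts were higher than at day 0. Of 15 secretory genes 11 were higher and 0 lower, with a median log2 ratio of 2.81, and 7 higher and 2 lower when day 0 barcodes were chosen by the rule of the members. Reg3g, an antibacterial lectin, stood at 2434, 6865 and 3773 CPM in members and 1.44 CPM (3 UMIs) at day 0. Bpifa1, a secreted airway defence protein, stood at 1740, 1821 and 1039 CPM in members and had 0 UMIs at day 0, so against a floor of 3 UMIs it was at least 1153-fold higher over the pooled members and at least 723-fold higher at day 20. Agr2 stood at 471, 916 and 203 CPM in members and 2.87 CPM at day 0. Scgb3a1 stood at 17227, 12849 and 2481 CPM in members and 239 CPM at day 0. All 4 were also expressed in the other epithelial barcodes, with Reg3g at 1190, 3045 and 2157 CPM there. Scgb1a1, the main secretoglobin of club cells, was not among the 11: it stood at 9452, 7346 and 15126 CPM in members and 19442 CPM at day 0, where macrophages had it at 3405 CPM.

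Free RNA bears on these genes and can be read from macrophages. Thinned to 2000 UMIs, a Reg3g UMI stood in 25%, 74.5% and 60.0% of members at days 8, 13 and 20, and in 0.613%, 12.3% and 2.13% of macrophages. Scgb3a1 stood in 39.3%, 82.7% and 37.8% of members and in 4.91%, 50.9% and 4.86% of macrophages. Agr2 stood in 14.3%, 57.3% and 22.2% of members and in 0%, 2.54% and 0.101% of macrophages. For these 3 genes the members lay above the macrophages at every culture day. Sftpc did not: it stood in 64.3%, 39.1% and 42.2% of members and in 51.3%, 66.2% and 49.1% of macrophages.

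Secretory and surfactant transcripts were spread unevenly over the members. The secretory list took over 1% of UMIs in 11 of 28, 78 of 112 and 23 of 46 members, of which 12 of 112 in total carried the doublet mark, against 2 of the other 74. The AT2 list took over 1%, a limit set after seeing the data, in 8, 25 and 10 members, of which 8 of 43 carried the mark, against 6 of the other 143. The top 10% of members held 96.9% of the Sftpc UMIs of day 13, while the median member had 424, 245 and 253 CPM, beside 354, 595 and 335 CPM in all macrophage UMIs. Members over 1% for AT2 genes were deeper, with medians of 47458.5, 46061 and 35086 UMIs against 30561, 31504 and 21737 UMIs in the other members. Their cilia lists took a smaller share of UMIs, with medians of 1.87%, 2.47% and 2.58% against 3.5%, 3.97% and 3.83%. Whether these barcodes held more than 1 cell was not tested beyond the doublet mark. Without them 6 of 9 AT2 genes were higher than at day 0, with a median of 2.25, against 9 of 13 and a median of 4.01 with them. Of 15 secretory genes 11 were then higher and 1 lower, with a median of 2.77.

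All 6 Notch pathway genes tested were lower than at day 0, with a median log2 ratio of -2.51, and all 6 were also lower under the 2 other scalings, without members rich in AT2 transcripts, without marked doublets, and with day 0 barcodes chosen by the rule of the members. Jag1, a Notch ligand, stood at 17.6, 29.4 and 53.1 CPM in members and 300 CPM at day 0 (log2 -3.24, -3.47 to -3.01). Hes1, a Notch target, stood at 144, 122 and 118 CPM in members and 656 CPM at day 0. The receptor gene Notch1 stood at 7.92, 6.99 and 16.1 CPM in members and 79.5 CPM at day 0. Notch2, Jag2 and Lfng made up the rest. Of the 4 Notch genes tested against the other epithelial barcodes, 0 were called, and Hes1 stood at 106, 121 and 101 CPM there.

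Cell cycle genes gave 9 higher and 0 lower of 10 against day 0, with a median of 4.09. Cdk1 stood at 131, 81.9 and 49.1 CPM in members and 2.87 CPM at day 0. Most of the day 20 level came from few members: the top 10% of them held 85.2% of the Cdk1 UMIs and 96.1% of those of Top2a, which was found in 7 of 46, and the list's share was 0.00708% in the median member of day 20 and 0.411% in the highest. Mki67, a marker of dividing cells, stood at 15.8, 18.5 and 16.1 CPM in members and 3.35 CPM at day 0, under the 20 CPM needed for a test. It was called higher under the median scaling, where 10 of 11 cycling genes were. The other epithelial barcodes had Mki67 at 129, 90.1 and 27.9 CPM. Ccna1, cyclin A1, stood at 139, 166 and 77.2 CPM in members, 0.958 CPM at day 0 and at most 0.0805 CPM in the other epithelial barcodes. Cdk1 stood at 122, 89.3 and 40.0 CPM in the other epithelial barcodes, close to its level in members.

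Genes of the alveolar transition state gave 4 higher and 0 lower of 12 against day 0, with a median of 1.35: Cldn4, Clu, Krt7 and Lgals3. Lgals3 stood at 3960, 2906 and 1823 CPM in members and 269 CPM at day 0, and Clu, a secreted chaperone, at 774, 501 and 395 CPM in members and 40.2 CPM at day 0. Of 11 AT1 genes 1 was higher (Aqp5) and 2 lower (Cav1 and Igfbp2). Both mesothelial genes tested, Msln and Upk1b, were higher, though each is also made by other epithelia. Of 6 MHC class II genes 0 were called, and of 8 interferon response genes 1, Usp18, which was lower.

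Of 13 glycolysis and hypoxia genes 7 were higher than at day 0 and 0 lower (median 1.45), and of 13 cholesterol and fatty acid genes 7 higher and 0 lower (median 1.84). Gapdh stood at 3196, 2094 and 1773 CPM in members and 547 CPM at day 0. Scd1, a fatty acid desaturase, stood at 1444, 892 and 1285 CPM in members and 15.3 CPM at day 0. Of 13 immediate early and heat shock genes 5 were lower and 0 higher (Fos, Jun, Egr1, Dusp1 and Ier2). With the median scaling, and with day 0 barcodes chosen by the rule of the members, 2 were lower (Fos and Ier2). Of 15 epithelial transcription factors 6 were lower, among them Nkx2-1, the lung lineage factor, at 88.9, 53.9 and 98.9 CPM in members and 258 CPM at day 0. Of 19 genes of drug and retinoid metabolism 4 were higher (Gsta3, Gsta4, Gsto1 and Adh7) and 4 lower (Cyp2a5, Cyp2b10, Cyp2s1 and Ces1d), and 2 lower with the median scaling (Cyp2b10 and Cyp2s1). Cyp2b10 stood at 21.1, 21.7 and 38.6 CPM in members and 296 CPM at day 0.

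By the same ranking the 12 leading genes over day 0 were Reg3g, Bpifa1, Agr2, Klk13, Scd1, Trf, Ccna1, Ptges, Upk1b, Sftpd, Lrrc26 and Klk10. Of these 12, Agr2 and Ccna1 were also higher than in the other epithelial barcodes, Klk13 and Scd1 were lower, and the other 8 were not called there. Ranked the same way, the 12 that led on the day 0 side were S100a9, Chil3, Tagln, S100a8, Slc7a2, Diras2, Il1b, Fxyd1, Kcnmb4, Nos2, Acta2 and Ramp2. S100a8, S100a9, Chil3 and Il1b are genes of neutrophils and macrophages, and Tagln and Acta2 of smooth muscle. Day 0 macrophages held S100a9 at 3083 CPM and Chil3 at 8545 CPM, against 308 and 179 CPM in day 0 ciliated barcodes. Endothelial (5 of 5), smooth muscle (3 of 3) and lymphoid (2 of 2) genes were likewise lower in members. Fibroblast genes went the other way, with 6 of 7 higher in members and summed levels of 389, 421 and 1380 CPM, against 119 CPM at day 0. Without the members rich in AT2 transcripts 1 of the 7 was higher, and without marked doublets 2. Of 12 macrophage genes 4 were higher and 1 lower, with sums of 1401, 1821 and 1405 CPM in members and 801 CPM at day 0. The part of these cells in the comparison was not tested. Slc7a2, a transporter of arginine, and Kcnmb4, a potassium channel subunit, belong to neither set and stood at 4.4, 5.30 and 3.22 CPM and at 7.92, 4.58 and 7.24 CPM in members, against 146 and 171 CPM at day 0.

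Members of the same day differed in their levels of the early and the late genes. Deup1, Ccno, Mcidas, Cdc20b and Foxn4 were summed as early genes, and Sntn, Tmem212, Cdhr3, Cdhr4 and Kcnrg as late genes. Both sets were picked after their values were seen, so what follows is a description. The early genes reached 200 CPM in 14 of 28 members at day 8, 26 of 112 at day 13 and 3 of 46 at day 20, were at 0 in 6, 29 and 22, and lay between in 8, 57 and 21. At day 13 the late genes stood at 153 CPM in the 26 members with high early genes and at 986 CPM in the 29 without any. Foxj1 stood at 510 CPM in the 26 and 288 CPM in the 29, and Myb at 184 CPM in the 26 and 21.8 CPM in the 29.

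Cell cycle genes went with the early genes. At day 13 Cdk1 stood at 264 CPM in the 26 members with high early genes and 11.6 CPM in the 29 without any, and Ccna1 at 274 CPM and 33.5 CPM in the same sets. Top2a, a topoisomerase of dividing cells, stood at 163 CPM and 8.73 CPM. Mki67 stood at 29.1 CPM and 10.2 CPM, and Cdkn1a, the cycle inhibitor p21, at 867 CPM and 148 CPM. Aldh1a1 ran the other way, at 263 CPM in the 26 and 2676 CPM in the 29. The order was the same at day 8 for Cdk1 (227 CPM in the 14 members with high early genes and 10.5 CPM in the 6 without) and Aldh1a1 (172 CPM and 1061 CPM). The 26 were deeper than the 29, with medians of 39773.5 and 21461 UMIs, and a shallow barcode more easily shows no early UMI. Day 0 ciliated barcodes gave a median of 0 for the early genes and 0.190% of UMIs for the late genes, against medians for the late genes of 0.0104%, 0.0568% and 0.0563% in members of days 8, 13 and 20. The late genes include Tmem212, which helped choose the day 0 barcodes and not the members, so this difference partly restates the rule.

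**Figure D3:**
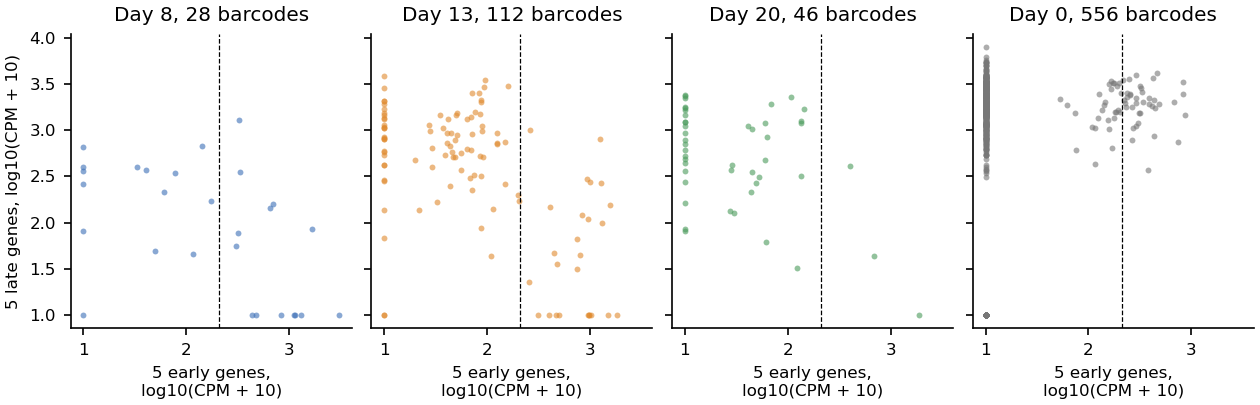
Summed early genes (Deup1, Ccno, Mcidas, Cdc20b, Foxn4) against summed late genes (Sntn, Tmem212, Cdhr3, Cdhr4, Kcnrg) in each ciliated barcode of days 8, 13, 20 and 0, both as log10 of CPM plus 10; the dashed line stands at 200 CPM of early genes. Right of the line lie 14, 26 and 3 members, most of them low on the vertical axis; at day 0, where the median barcode has 3262.5 UMIs, a lone UMI already exceeds the line in shallow barcodes.

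All 5 late genes were called higher at day 13 over day 8, and from day 13 to day 20 Cdhr4 alone. Of the early genes Ccno was called lower at day 13 and at day 20, and Deup1 at day 20. Both sets were picked after their values were seen, so these calls are a description. From day 8 to day 13, 286 of 6708 genes were higher (4.26%) and 169 lower (2.52%) by the same 2-fold and 20 CPM limits within the pair of libraries. Of 178 cilia genes outside the rule 18 were higher at day 13 and 1 lower, Ccno. Of 28 other ciliated cell genes 9 were higher, among them Sntn (log2 2.54, 2.06 to 3.06), Kcnrg, Cdhr3 and Sec14l3. Of 13 outer arm genes 3 were higher (Dnah5, Dnah11 and Nme9). These counts of single lists keep any genes of the rules. Drug and retinoid metabolism genes were higher in 8 of 18, with Cyp2a5 at 100 CPM in day 13 members and 2.64 CPM in day 8 members. Aldh1a1, which makes retinoic acid, stood at 1384 CPM at day 13 and 492 CPM at day 8.

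From day 13 to day 20, 275 of 6863 genes were higher (4.01%) and 210 lower (3.06%). Of 176 cilia genes 3 were higher at day 20 (Sec14l3, Cdhr4 and Ttll3) and 5 lower (Ccno, Cep120, Deup1, Plk4 and Rsph3a). All of the 5 except Rsph3a, a radial spoke gene, are centriole genes. Metabolism genes were higher in 6 of 18, with Aldh1a1 at 3746 CPM, Cyp2f2 at 3850 CPM and Cyp2a5 at 482 CPM at day 20. The other epithelial barcodes had Cyp2f2 at 695, 1504 and 3568 CPM at days 8, 13 and 20, close to the 563, 1387 and 3850 CPM of members. Aldh1a1 stood at 62.0, 98.4 and 171 CPM in them. Secretory genes were lower in 6 of 15, Agr2 and Scgb3a1 among them, and higher in 1, Scgb1a1. Genes of the alveolar transition state were lower in 6 of 12, with Krt18 at 577 CPM at day 20 and 1493 CPM at day 13. That list also fell in the other epithelial barcodes, with sums of 7106, 5793 and 3827 CPM at days 8, 13 and 20. Its sums in members were 15218, 9870 and 5831 CPM. MHC class II genes were higher in 6 of 6 and interferon response genes in 6 of 9. Fibroblast genes were higher in 6 of 8 as well, with Col1a2 at 223 CPM at day 20 and 41.0 CPM at day 13, and MHC class II genes were also higher outside the members, with H2-Ab1 at 181 CPM in the other epithelial barcodes of day 20 and 36.1 CPM in those of day 13, and at 1142 CPM in macrophages of day 20. Their part in the day 20 values was not tested. Without members rich in AT2 transcripts, an alternative chosen after seeing the data, 385 genes were lower at day 20 than at day 13.

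Between days 8 and 20, 601 of 7032 genes were higher at day 20 (8.55%) and 418 lower (5.94%). Cycling genes were lower in 7 of 10 and higher in 1, transition genes lower in 9 of 12, and metabolism genes higher in 11 of 18. The 6 leading genes at day 20 were Cyp2a5, Cxcl13, Iigp1, H2-Q7, Lyz1 and Sult1d1, and those at day 8 were Sprr1a, Crct1, Ndnf, Upk3a, Tnip3 and Tnfrsf12a. Iigp1, an interferon-induced GTPase, stood at 2.64, 25.8 and 150 CPM in members and at 4.91, 15.2 and 191 CPM in the other epithelial barcodes. Krt8 stood at 1102 CPM at day 20 and 3708 CPM at day 8, and Lgals3 at 1823 CPM at day 20 and 3960 CPM at day 8. Both genes were also lower at day 20 than at day 8 in the other epithelial barcodes.

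Several of the leading genes between days came from few members. The largest at day 13 over day 8 were Ctla2a, Ccl8, Cyp2a5, Krt15, Lyz1 and Timp4, and 2 of 112 members held all Ctla2a UMIs of day 13. On the day 8 side were Crct1, Upk3a, Sprr1a, Ly6k, Cryab and Cldn18. At day 20 over day 13 they were Cxcl13 (3 of 46 members), Cxcl10 (7), Clec2m (1), H2-Q7 (12), Cd209f (8) and Igtp, and on the day 13 side Ctla2a, H2ac24, EGFP, Msln, H2ac18 and Alox15. Ccl8 was found in 111 of 112 members at day 13, where macrophages held it at 13089 CPM against 621 CPM in members. Timp4, an inhibitor of matrix proteases, stood at 0.880, 52.0 and 26.5 CPM in members and at most 0.0805 CPM in the other epithelial barcodes.

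**Figure D4:**
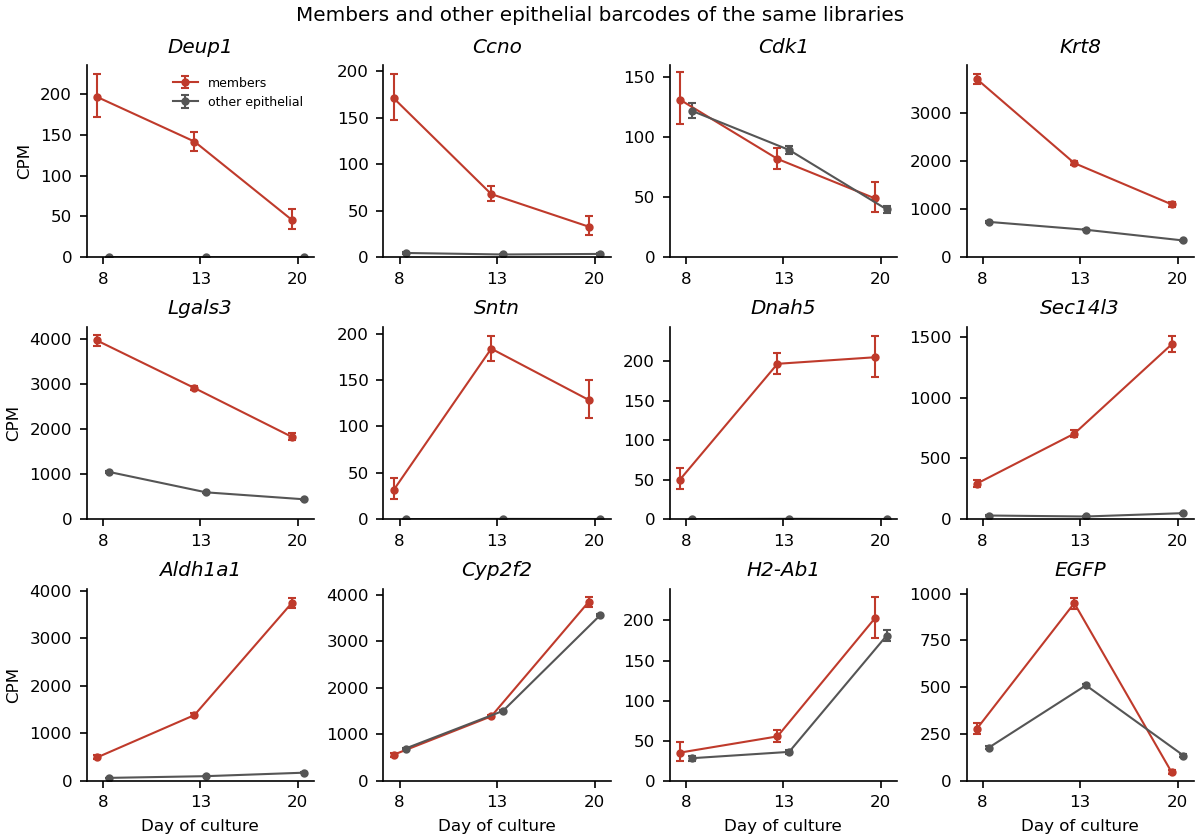
Levels of 12 genes by day of culture in members (red) and other epithelial barcodes (grey) of the same libraries, in CPM of summed UMIs with exact 95% Poisson intervals (counting error). Deup1, Ccno, Cdk1, Krt8 and Lgals3 are lowest in members at day 20, and Sec14l3, Aldh1a1 and Cyp2f2 highest. EGFP is highest at day 13 in both sets. Cdk1, Cyp2f2 and H2-Ab1 take similar courses in both, and Krt8 and Lgals3 fall by day in both.

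The reporter of the sorted lineage was read from the same libraries. EGFP stood at 278, 949 and 45.0 CPM in members of days 8, 13 and 20, against 649 CPM in day 0 ciliated barcodes, and tdTomato at 115, 110 and 141 CPM, against 184 CPM at day 0. Barcodes with at least 2 reporter UMIs were called EGFP-dominant when EGFP made up at least 80% of these. That held for 4 of 21 members at day 8 (19%, exact interval 5.45 to 41.9), 50 of 107 at day 13 (46.7%, 37.0 to 56.6) and 0 of 38 at day 20 (exact upper bound 9.25%). Of day 0 ciliated barcodes 166 of 279 were EGFP-dominant (59.5%, 53.5 to 65.3). Other epithelial barcodes gave 55 of 423 (13.0%), 425 of 1281 (33.2%) and 80 of 568 (14.1%), and macrophages between 0.600% and 2.68% in the cultures. At day 13 the share of members lay above that of the other epithelial barcodes (30.6 to 35.8) beyond counting error, but members are deeper. Among barcodes with at least 5 reporter UMIs it was 49 of 94 members (52.1%, 41.6 to 62.5) and 399 of 845 others (47.2%, 43.8 to 50.6), and the intervals overlap. At day 20 that limit gave 0 of 22 members (upper bound 15.4%) and 65 of 272 others (23.9%, 19 to 29.4). Day 0 ciliated barcodes gave 96 of 120 (80%) under it. tdTomato dominated in 5, 24 and 20 members. It also dominated in 48 of the 279 day 0 ciliated barcodes, although that library is labelled as sorted GFP+ cells. With dominance set at 90%, tdTomato dominated in 1, 12 and 12 members and EGFP in 4, 49 and 0. At the 80% limit tdTomato dominated in 82.0%, 69.3% and 75.5% of macrophages with at least 2 reporter UMIs at days 8, 13 and 20. The highest EGFP count in a day 20 member was 5 UMIs.

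**Figure D5:**
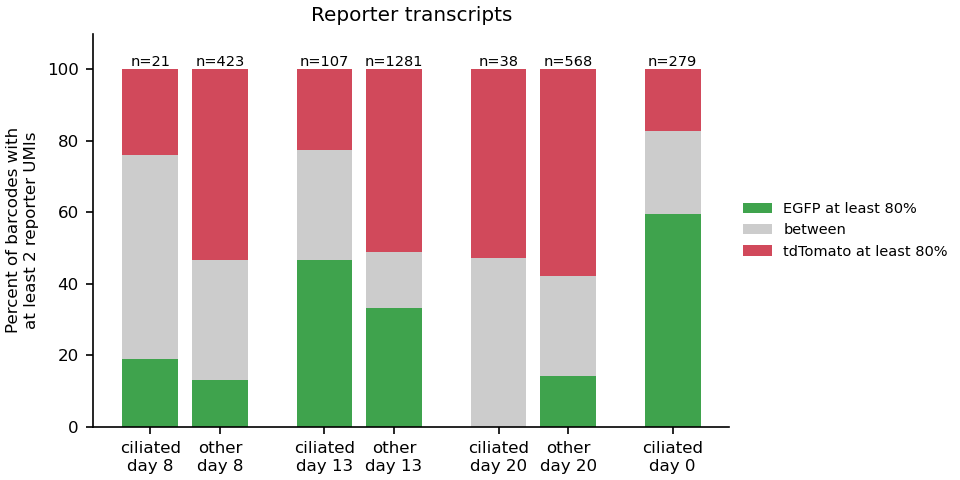
Share of barcodes with at least 2 reporter UMIs in which EGFP (green) or tdTomato (red) made up at least 80% of reporter UMIs, for members and other epithelial barcodes of each culture day and for day 0 ciliated barcodes, with the number of barcodes above each bar. The green share of members is 46.7% at day 13 and 0% at day 20.

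At day 13, where both kinds were frequent, EGFP-dominant and tdTomato-dominant members differed in several genes. Cilia lists took a median of 3.97% of UMIs in the 50 EGFP-dominant members and 2.65% in the 24 tdTomato-dominant ones, with interquartile ranges of 2.95 to 5.74% and 1.86 to 4.78% that overlap. Sntn stood at 301 CPM in the EGFP-dominant and 79.5 CPM in the tdTomato-dominant members, and Deup1 at 124 CPM and 207 CPM. Scgb1a1 stood at 1031 CPM in the EGFP-dominant and 15260 CPM in the tdTomato-dominant members. Reg3g ran the other way, at 10229 CPM and 2825 CPM, as did Msln, at 781 CPM and 171 CPM. Median depth was 34113 and 32816.5 UMIs. At day 8 Reg3g and the cilia share took the opposite order. The 4 EGFP-dominant members there had Reg3g at 0 CPM and a median cilia share of 2.31%. The 5 tdTomato-dominant members had 5882 CPM and 3.24%. Sntn, Deup1, Scgb1a1 and Msln kept the order of day 13. At each day the members of a class shared 1 library, so these differences were not tested.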

How the data were processed

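Single-cell suspensions of 4 libraries, 1 for each of days 8, 13, 20 and 0, were run on Chromium 3' v3.1 chemistry, per the labels' protocols. The submitters' processing notes name Cell Ranger 7.0.1 and mm10. The deposited matrices hold raw UMI counts for 22547 features, which the authors left unnormalised. Barcodes passed at 500 genes and 15% mitochondrial UMIs. UMIs were summed over ciliated barcodes of a library and divided by their total to give CPM. Ratios have exact conditional Poisson intervals at 95%. With 1 library per day there was no test and no p-value.

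A gene was called at 2-fold in the same direction in each culture library, with 20 CPM in the higher group and a pooled interval without 1, and tested where either group reached 20 CPM. Fold bounds against 0 UMIs use 3 UMIs. Other epithelial barcodes had an Epcam UMI, under 0.02% of the 5 rule genes and under 1% of macrophage and fibroblast genes. Macrophage barcodes (no Epcam UMI, at least 2% macrophage list, under 0.2% fibroblast list), the early and late gene sets and the AT2 limit were chosen after seeing the data. Named genes were the 12 leading ones each way against day 0, 12 and 8 against the other epithelial barcodes and 6 each way between days, at 50 CPM or more, with list members of high level or called. Members and lists were chosen with earlier results of these data known. Doublets were marked with Scrublet in Scanpy 1.11.5 at 0.8% per 1000 barcodes and kept. Its automatic limit marked 255 barcodes at day 8 and 0 in the other libraries. Python 3.11.15, NumPy 2.4.6, SciPy 1.17.1 and pandas 2.3.3 were used, and the calling code was tested on simulated data. Alternatives were other share limits, CPM limits, scalings and day 0 rules, marked doublets removed, and each culture library left out.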

Additional observations from a re-analysis of the deposited data

Results flagged for a closer look

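For 4 genes the log2 ratio of members to other epithelial barcodes took opposite signs at different culture days, with each library's interval on its own side; the difference between days was not tested, since there is 1 library per day. Crct1, a gene of cornified epithelia, had ratios of 4.09 at day 8, -3.98 at day 13 and -1.57 at day 20, from 215, 16.4 and 3.22 CPM in members and 12.6, 259 and 9.58 CPM in the others. Sprr1a, which codes for a small proline-rich envelope protein, had ratios of 1.67, -3.56 and -3.40, from 276, 29.1 and 0 CPM in members and 86.7, 343 and 25.5 CPM in the others. Ltf, lactotransferrin, had ratios of 1.92, -1.71 and -3.60, from 69.5, 92.0 and 23.3 CPM in members and 18.4, 301 and 284 CPM in the others. Ube2c, a mitotic ubiquitin carrier, had ratios of -2.00, -1.97 and 1.11, from 46.6, 31.3 and 95.7 CPM in members and 186, 123 and 44.4 CPM in the others. Few members carried the high values: the top 10% of day 8 members held 92.2% of the Crct1 UMIs, 96.2% of those of Sprr1a and 100% of those of Ltf, and the top 10% of day 20 members held 98.3% of the Ube2c UMIs.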

How the results depend on the processing

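Of the comparisons with alternatives among the main results, 151 values stayed within the set range, 34 moved and 1 took the opposite sign. The sign changed for the median of all genes against day 0, which was 0.018 under median-ratio scaling. That scaling centres the gene ratios by construction, so this change was built in. Under it 689 genes were higher, 728 lower and 37 cilia genes lower, with a cilia median of -0.50. With members at 0.3% of UMIs the shares were 0.827% at day 13 and 0.349% at day 20, the medians against day 0 were -0.55 for cilia and -0.33 for all genes, 258 genes were lower than in other epithelial barcodes, and 256 were lower at day 13 than at day 8. Without members rich in AT2 transcripts (added after seeing the data) the day 13 share was 0.934%, the medians -0.72 and -0.33, and 385 genes were lower at day 20 than at day 13. With day 0 barcodes chosen by the rule of the members 775 genes were lower, with medians of -0.60 and -0.15. A limit of 5 CPM gave 789 higher than day 0 and 190 lower than the other epithelial barcodes. A limit of 50 CPM gave 241 higher and 675 lower than day 0, 2 cilia genes higher, an all-gene median of -0.29, and 615 higher and 63 lower than the others. Leaving out 1 culture library, which by construction asks for agreement in fewer libraries, gave 167 (without day 8) to 191 (without day 20) genes lower than the others, 171 without day 13, and 4 to 7 cilia genes higher than day 0, 7 of them without day 20. Thinned to 1000 UMIs, 6.25% of members at day 13 and 2.17% at day 20 had a Deup1 UMI; unthinned, 75%, 69.6% and 43.5% did at days 8, 13 and 20. Among single genes and lists 589 values stayed and 167 moved. The causes were not tested, except that a stricter limit tests fewer genes and median-ratio scaling centres the ratios, both by construction. No paired analysis was possible because each day has 1 library. Depth limits day 0, where the median ciliated barcode has 3262.5 UMIs, and day 8, which has 28 members. Every interval covers counting error and leaves out the spread between animals or cultures.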
